A study of Mus musculus with 10 samples.

Results

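The core of the transforming growth factor beta (TGF-beta) pathway was followed through mouse motor cortex as 10 genes, chosen by symbol: the ligands Tgfb1, Tgfb2 and Tgfb3, the latent ligand carrier Ltbp1, the receptors Tgfbr1 and Tgfbr2, and the signal transducers Smad2, Smad3, Smad4 and Smad7. All 10 were found once each among the 35275 genes of the table, and all 10 passed the filter on low values. The groups were 5 wild-type mice (WT) and 5 mice with a conditional knockout of membralin in astrocytes (KO), all of the C57BL/6 strain and all sampled at postnatal day 22. Tmem259 encodes membralin, which sits in the endoplasmic reticulum membrane. The driver of the recombination is not given in the sources used here, so whether all other cells of the cortex keep the gene is not known.

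TGF-beta ligands are secreted as inactive complexes with their own propeptide, which latent TGF-beta binding proteins such as Ltbp1 tether to the matrix. Integrins and proteases release the ligand, which binds the type II receptor Tgfbr2. That receptor activates the type I receptor Tgfbr1, which phosphorylates Smad2 and Smad3. These join Smad4 and enter the nucleus, and the induced Smad7 shuts the receptors off. In brain, microglia depend on TGF-beta for their resting identity, and astrocytes, endothelium and microglia all respond to it.

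Between 22793058 and 28827871 fragments per library were assigned to genes, and the members held between 164 and 2538 fragments in a library. Tmem259 itself, the gene deleted in KO astrocytes, goes against the label of the third KO library: it was 34.4 FPKM there (fragments per kilobase of gene, scaled to the fragments assigned in the library), above all 9 other libraries. KO1, KO2 and KO4 held 20.1, 18.5 and 16.9 FPKM, below every WT library (23.8 to 32.4 FPKM), while KO5 at 26.2 FPKM lay within the WT range. Over all libraries Tmem259 was not called (log2 difference -0.27, limma adjusted p = 0.275), and without KO3 it was lower by -0.42 (adjusted p = 0.0279). It is called the library labelled KO3, and results are given with and without it. Libraries with at least 1 FPKM of Omp, a marker of olfactory tissue, were 2 of 5 in WT (WT3 and WT4) and 4 of 5 in KO (all but KO5). Summed olfactory bulb markers ran from 10.3 to 58.1 FPKM in WT and from 37.0 to 108 FPKM in KO. Of 9 tested olfactory bulb markers 3 were called higher, Th, Calb2 and Trh, with a median log2 difference of 1.10 over the 9. Fits by Omp level are given after the members. Markers of cortical excitatory neurons, which check the tissue, summed to 1614 to 1930 FPKM in WT and 1447 to 1596 FPKM in KO, with 1 of 10 called higher and 5 lower. The values cover whole tissue. For the members as for the markers, numbers of cells of a type, RNA per cell and a difference in the tissue dissected cannot be told apart.

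In KO cortex the receptor Tgfbr2 and the ligand Tgfb3 rose and the transducer Smad3 fell, by 0.38, 0.36 and -0.22 on the log2(FPKM + 1) scale (limma, adjusted p under 0.05 over all genes tested). Thus 2 of 10 members were called higher, where 9.77% of the 14497 tested genes were, and 1 of 10 lower, where 3.51% were; in either direction that is 3 of 10 beside 13.3%. With median-of-ratios scaling 1 member was called in each direction, Tgfbr2 higher and Smad3 lower, against 4.19% of all genes higher and 6.53% lower (10.7% in either direction). Without the library labelled KO3, 5 members were called higher, Tgfb1, Tgfb2 and Tgfbr1 joining the first pair, and Smad3 was called lower. The background was then 19.6% of genes higher, 6.36% lower and 26.0% in either direction, with 17.8% of genes wholly above WT and 5.80% wholly below. The median difference over the 10 members was 0.16, and over all tested genes it was 0.08. Smad2, Smad4, Smad7 and Ltbp1 were not called in either fit.

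**Figure D1:**
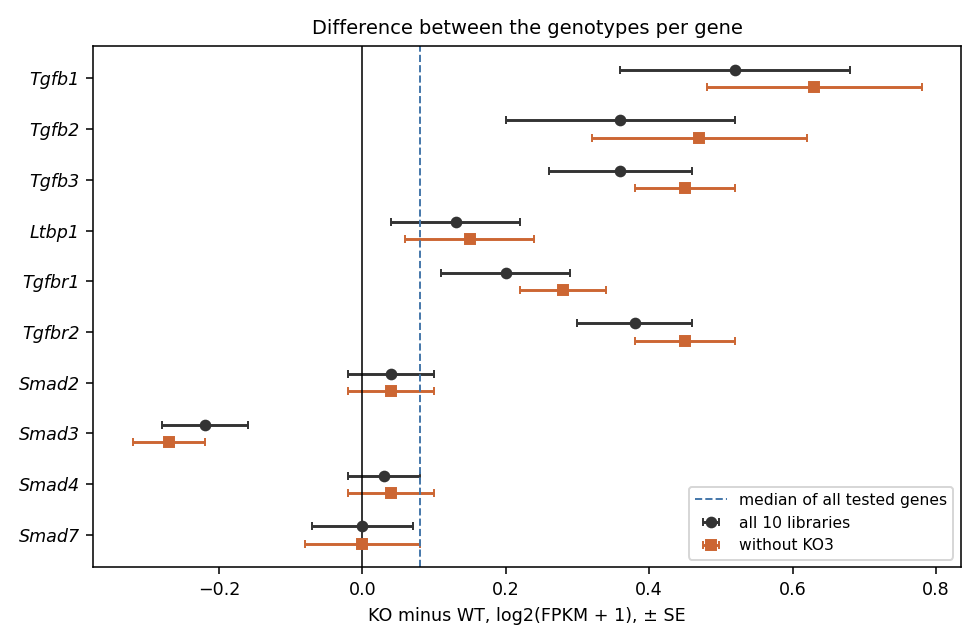
KO minus WT on the log2(FPKM + 1) scale, on the horizontal axis, for each of the 10 genes, with bars for the standard error. Black circles use all 10 libraries and orange squares leave out the library labelled KO3; the dashed line is the median of all tested genes at 0.08. Smad3 lies below 0 at -0.22 and -0.27, while the ligands and receptors lie above the dashed line.

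The upstream sequences of Tgfbr2, which rose, Smad3, which fell, and Tgfb1, the ligand with the widest spread in KO, are printed to show what lies before the starts of a gene called higher, a gene called lower and one not called with all libraries. Each runs 5′ to 3′ on the gene's strand over the 250 bases before the RefSeq start (GRCm38.p6), which is also the gene boundary of the deposited table. Capitals mark the SMAD element CAGAC and the GC box GGGCGG, searched on both strands and without overlap between them here. The regions are chr9:116175364-116175613 (minus strand) for Tgfbr2, chr9:63757995-63758244 (minus strand) for Smad3 and chr7:25686752-25687001 (plus strand) for Tgfb1.
Tgfbr2: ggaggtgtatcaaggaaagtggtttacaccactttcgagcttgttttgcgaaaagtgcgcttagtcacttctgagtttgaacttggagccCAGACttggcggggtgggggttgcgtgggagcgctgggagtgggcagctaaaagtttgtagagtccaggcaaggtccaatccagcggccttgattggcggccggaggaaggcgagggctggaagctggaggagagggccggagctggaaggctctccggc
Smad3: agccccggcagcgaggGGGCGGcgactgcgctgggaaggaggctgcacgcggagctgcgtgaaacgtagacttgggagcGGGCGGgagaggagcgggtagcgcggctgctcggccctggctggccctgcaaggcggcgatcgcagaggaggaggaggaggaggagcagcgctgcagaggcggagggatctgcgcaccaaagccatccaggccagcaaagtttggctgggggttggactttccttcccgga
Tgfb1: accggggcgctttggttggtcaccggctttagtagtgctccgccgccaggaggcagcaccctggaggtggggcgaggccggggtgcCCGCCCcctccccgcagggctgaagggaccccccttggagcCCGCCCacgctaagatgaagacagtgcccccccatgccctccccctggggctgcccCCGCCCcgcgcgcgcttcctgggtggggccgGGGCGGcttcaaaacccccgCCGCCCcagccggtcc
The Tgfb1 stretch held 5 GC boxes and 75.2% G or C, and the Smad3 stretch 2 GC boxes and 69.2%. The Tgfbr2 stretch held 1 CAGAC, whose first base lies 160 bases before the start, no GC box, and 58.4% G or C. None of them held the AP-1 site TGANTCA. Over 32817 windows of the same length, 42.2% held CAGAC, 32.7% held GGGCGG and 6.75% held TGANTCA, and the median window had 52.4% G or C. A match of letters is a description and not a binding site. Of the 10 members, 6 were found in the promoter table.

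Among the ligands, Tgfb1, the form made by microglia and endothelium, measured 3.29, 3.29, 3.59, 2.80 and 3.46 FPKM in WT1 to WT5. The values in KO1 to KO5 were 3.84, 5.09, 3.57, 6.05 and 8.29 FPKM. KO5 was the highest of all, 4 of 5 KO libraries lay above every WT library, and KO3 lay just inside the WT range. WT averaged 3.29 ± 0.300 FPKM and KO 5.37 ± 1.91 FPKM (SD, n = 5 per group), a ratio of 1.63. The log2 difference was 0.52 (SE 0.16) and just missed the threshold (limma adjusted p = 0.0518; two-sided p = 0.0159 by exact permutation, where the smallest possible is 0.00794). It was 0.63 without the library labelled KO3 (limma adjusted p = 0.0112) and 0.38 without KO5 (adjusted p = 0.0762). The range over the alternatives was 0.00241 to 0.384. Tgfb1 lies on chromosome 7 from 25687002 to 25705077 on the plus strand (mm10), where the annotation shows no overlapping gene.

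Tgfb3, a ligand best known from palate and heart development, measured 3.94, 4.05, 4.15, 4.27 and 4.27 FPKM in WT1 to WT5. The values in KO1 to KO5 were 5.60, 7.06, 4.21, 6.09 and 5.35 FPKM. The WT libraries lay close together, and every KO library except KO3 was above all of them. The means were 4.14 ± 0.143 and 5.66 ± 1.04 FPKM (SD, n = 5 per group), and the log2 difference of 0.36 (SE 0.10) passed (limma adjusted p = 0.0346). The call was lost with any 1 library other than KO3 left out (highest adjusted p = 0.0899) and with median-of-ratios scaling (adjusted p = 0.0653), and the range over the alternatives was 0.00173 to 0.386. Without the library labelled KO3 the log2 difference was 0.45 (limma adjusted p = 0.00183) and the call then held with any further library left out. Tgfb3 lies on chromosome 12 from 86056744 to 86079041 on the minus strand. Its exons share 257 bases with the opposite-strand transcript Gm48008 and 163 bases with Gm37804, so reads of these cannot be told apart if the counting ignored strand. The coding gene Ttll5 also overlaps it on the plus strand but shares no exon bases with it, and was 6.98 FPKM in WT and 6.94 FPKM in KO.

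Tgfb2, the ligand that neurons and astrocytes make, measured 3.95, 3.16, 4.21, 4.69 and 2.49 FPKM in WT1 to WT5. The values in KO1 to KO5 were 5.69, 4.52, 3.37, 6.84 and 4.84 FPKM. The groups overlapped, with KO1, KO4 and KO5 above every WT library and KO3 lowest in KO. The log2 difference of 0.36 (SE 0.16) did not pass (limma adjusted p = 0.143; exact permutation p = 0.103), and it was 0.47 without the library labelled KO3 (limma adjusted p = 0.0349). With a score of olfactory bulb markers in the model it was 0.15, or 0.24 with that library removed as well (adjusted p = 0.427). Tgfb2 lies on chromosome 1 from 186623186 to 186705992 on the minus strand and shares 124 exon bases with the antisense transcript Gm29491.

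Summed over the 3 ligands, the level was 11.2, 10.5, 11.9, 11.8 and 10.2 FPKM in WT1 to WT5 and 15.1, 16.7, 11.1, 19.0 and 18.5 FPKM in KO1 to KO5. The sum thus lay above every WT library in 4 of 5 KO libraries, and inside the WT range in KO3. The shares of the 3 ligands differed between the genotypes by less than their SDs: Tgfb1 gave 29.7 ± 3.70% of it in WT and 32.9 ± 7.19% in KO, Tgfb2 33.0 ± 5.93% and 31.4 ± 5.17%, and Tgfb3 37.3 ± 2.89% and 35.6 ± 5.21% (SD, n = 5 per group). KO5 stood apart in its make-up, with 44.9% of its ligand level from Tgfb1 and 29.0% from Tgfb3. In KO5 summed markers of mural cells (133 FPKM), meningeal fibroblasts (143 FPKM) and endothelium (244 FPKM) were also the highest of all libraries. Their part in its Tgfb1 level was not tested.

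**Figure D2:**
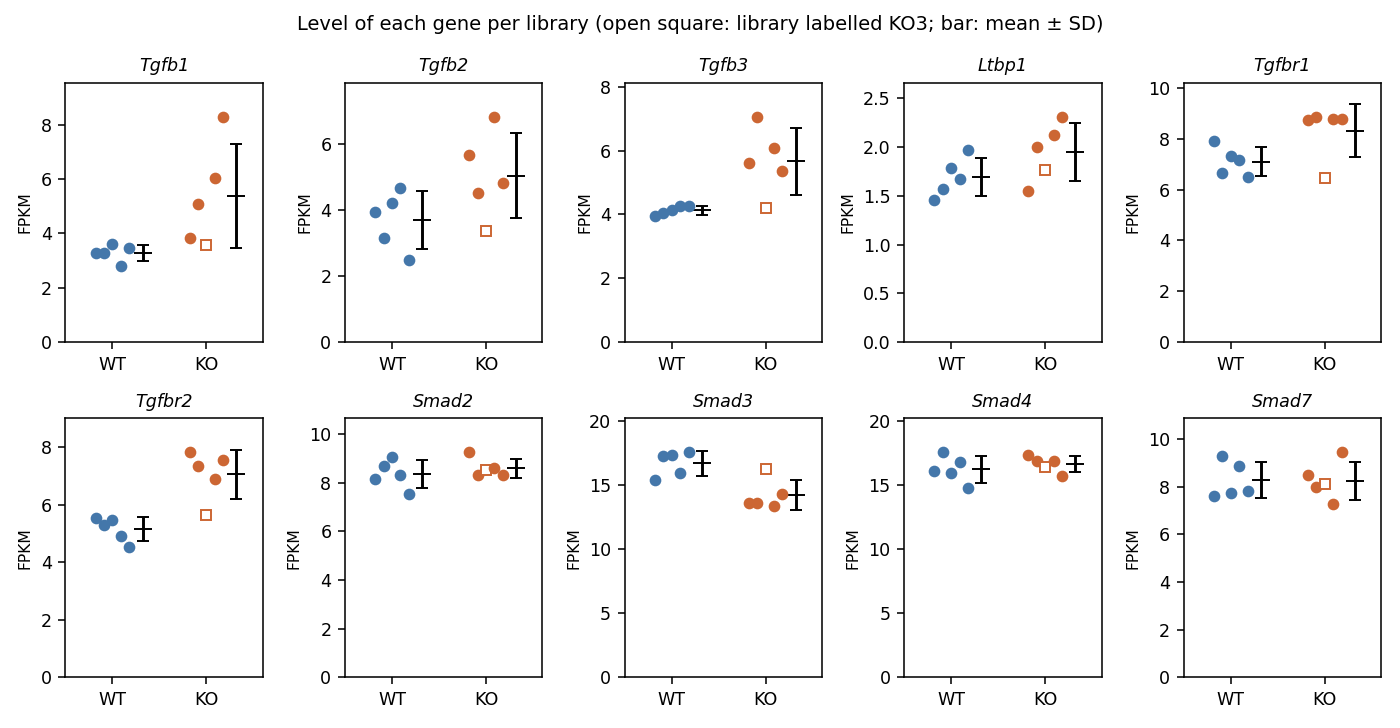
FPKM of each of the 10 genes on the vertical axis, with 1 point per library for WT (blue) and KO (orange), and mean ± SD beside each group (n = 5); the open square is the library labelled KO3. Tgfbr2 is the gene whose groups do not overlap, with WT at 4.54 to 5.53 FPKM and KO at 5.64 to 7.82 FPKM.

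Ltbp1, which holds latent ligand in the matrix, was the lowest member at 1.69 ± 0.198 FPKM in WT against 1.95 ± 0.299 FPKM in KO (SD, n = 5 per group). It ran from 1.46 to 1.97 FPKM in WT and from 1.55 to 2.31 FPKM in KO, with KO2, KO4 and KO5 above every WT library. The difference of 0.13 (SE 0.09) did not pass (limma adjusted p = 0.321). Nrros, the LRRC33 protein that anchors latent ligand on microglia and is named because the choice of Ltbp1 refers to it, measured 2.54, 1.73, 2.20, 1.65 and 3.95 FPKM in WT1 to WT5 and between 1.51 and 1.95 FPKM in KO. WT5 was the highest library and the groups overlapped (log2 difference -0.26, SE 0.15, limma adjusted p = 0.238).

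Tgfbr2, the type II receptor that binds the ligand, measured 5.53, 5.30, 5.48, 4.90 and 4.54 FPKM in WT1 to WT5. The values in KO1 to KO5 were 7.82, 7.34, 5.64, 6.89 and 7.53 FPKM. The groups did not overlap, with all of KO higher and KO3 only just so, which held for 1 of 10 members; among all tested genes 5.70% had KO wholly above WT, and 1.85% had it wholly below, as no member did. The means were 5.15 ± 0.421 and 7.04 ± 0.852 FPKM (SD, n = 5 per group), a 1.37-fold ratio. The log2 difference was 0.38 (SE 0.08, limma adjusted p = 0.0198; exact permutation p = 0.00794, the smallest possible). It was 0.45 without the library labelled KO3 (limma adjusted p = 9.5e-04). The adjusted p was 0.0515 without WT1, 0.0532 without KO2 and 0.0563 without KO4, and up to 0.356 over all alternatives. Tgfbr2 lies on chromosome 9 from 116087698 to 116175363 on the minus strand.

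Tgfbr1, the type I receptor kinase, measured 7.91, 6.64, 7.31, 7.16 and 6.49 FPKM in WT1 to WT5. The values in KO1 to KO5 were 8.75, 8.86, 6.45, 8.77 and 8.78 FPKM. The KO libraries other than KO3 were nearly equal and above every WT library, while KO3 was the lowest of all 10. The difference of 0.20 (SE 0.09) did not pass with all libraries (limma adjusted p = 0.131). Without the library labelled KO3 it was 0.28 (limma adjusted p = 0.00785), with a KO mean of 8.79 ± 0.0493 FPKM (SD, n = 4) against 7.10 ± 0.570 FPKM (SD, n = 5) in WT. With median-of-ratios scaling of all libraries it was 0.11. Tgfbr1 lies on chromosome 4 from 47353222 to 47414931 on the plus strand.

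The level of Tgfbr1 over that of Tgfbr2 was 1.43, 1.25, 1.33, 1.46 and 1.43 in WT1 to WT5 and 1.12, 1.21, 1.14, 1.27 and 1.17 in KO1 to KO5. Such a ratio does not depend on how libraries are scaled. It was lower in 4 of 5 KO libraries than in any WT library, KO3 among them, and KO4 at 1.27 passed only WT2 at 1.25.

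Of the transducers, Smad3, which binds DNA directly and is phosphorylated by Tgfbr1, measured 15.4, 17.3, 17.4, 16.0 and 17.6 FPKM in WT1 to WT5. The values in KO1 to KO5 were 13.6, 13.6, 16.3, 13.4 and 14.3 FPKM. The KO libraries other than KO3 lay below every WT library, and KO3 lay within the WT range. The means were 16.7 ± 0.991 and 14.2 ± 1.21 FPKM (SD, n = 5 per group), and the log2 difference of -0.22 (SE 0.06) passed (limma adjusted p = 0.0420; exact permutation p = 0.0238). The call was lost with any 1 library other than KO3 left out (highest adjusted p = 0.107), and the range over the alternatives was 0.00511 to 0.396. Without the library labelled KO3 the log2 difference was -0.27 (limma adjusted p = 0.00537) and the call held with any further library left out. With the olfactory bulb score added to the fit without KO3, the difference was -0.25 and did not pass (limma adjusted p = 0.0698). Smad3 was lower in KO in all 35 alternative fits, from -0.31 to -0.20. It lies on chromosome 9 from 63646767 to 63757994 on the minus strand.

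Smad2, the other receptor-activated SMAD of this pathway, was not called. It ran from 7.55 to 9.06 FPKM in WT and from 8.30 to 9.26 FPKM in KO (log2 difference 0.04, SE 0.06, limma adjusted p = 0.671). Within each library the level of Smad3 over Smad2 was 1.89, 1.99, 1.92, 1.91 and 2.33 in WT1 to WT5 and 1.46, 1.64, 1.91, 1.56 and 1.71 in KO1 to KO5. In KO1, KO2, KO4 and KO5 Smad3 thus exceeded Smad2 by less than in any WT library, and KO3 at 1.91 lay within the WT range.

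Smad4, the shared partner that both join, was 16.3 ± 1.05 FPKM in WT against 16.7 ± 0.645 FPKM in KO (SD, n = 5 per group). The log2 difference of Smad4 was 0.03 (SE 0.05, limma adjusted p = 0.703). Smad7, the feedback inhibitor that a rise in signalling induces, was 8.28 ± 0.758 and 8.26 ± 0.800 FPKM (SD, n = 5 per group). Its values ran from 7.63 to 9.31 FPKM in WT and from 7.28 to 9.46 FPKM in KO, and its difference of -0.00 (SE 0.07) was not called (limma adjusted p = 0.980). The level of Smad7 over the sum of Smad2 and Smad3 was 0.331 ± 0.0305 in WT and 0.362 ± 0.0375 in KO (SD, n = 5 per group). Smad2, Smad4 and Smad7 lie on chromosome 18 at 76241580 to 76305731, 73639009 to 73703780 and 75367529 to 75395935. The signs of the small differences of Smad2 and Smad4 depended on the scaling. With median-of-ratios scaling the differences of Smad2, Smad4 and Smad7 were -0.05, -0.06 and -0.09.

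**Figure D3:**
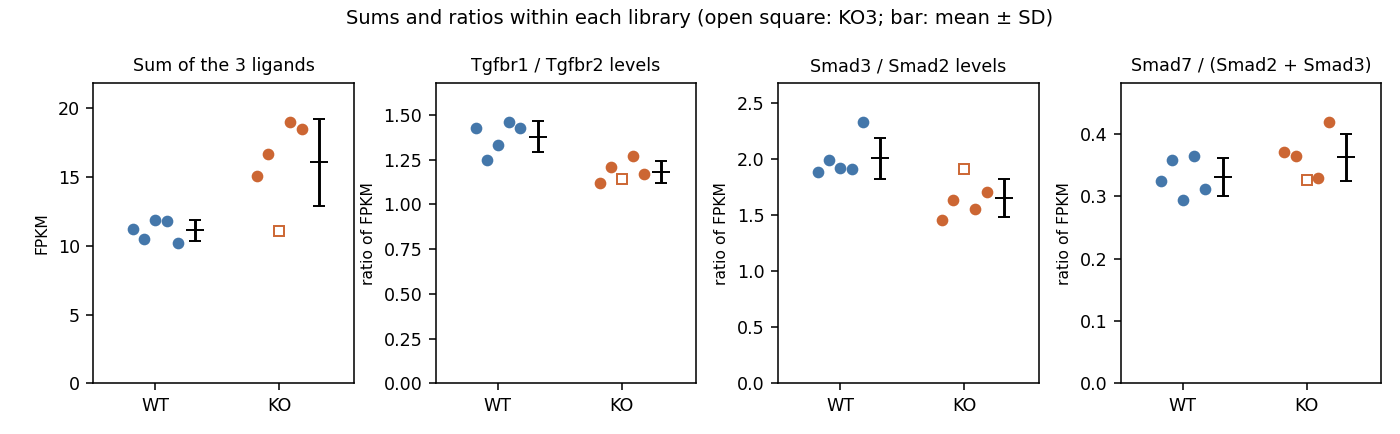
Sum of the 3 ligand levels in FPKM and 3 ratios of levels within each library on the vertical axes, WT in blue, KO in orange, with mean ± SD (n = 5) beside each group; the open square is the library labelled KO3. Smad3 over Smad2 is 2.01 ± 0.185 in WT and 1.66 ± 0.169 in KO, with KO3 at 1.91, and Tgfbr1 over Tgfbr2 is 1.38 ± 0.0866 in WT and 1.18 ± 0.0607 in KO.

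Ordered by FPKM, which is per length and so can be set side by side, the WT levels ran Smad3, Smad4, Smad2, Smad7, Tgfbr1, Tgfbr2, Tgfb3, Tgfb2, Tgfb1 and Ltbp1, from 16.7 to 1.69 FPKM. The transducers thus stood above the receptors and these above the ligands. Smad3 and Smad4 overlapped in range, as did Smad2, Smad7 and Tgfbr1 in turn, and the ligands among themselves. In KO the order changed at the top, where Smad4 at 16.7 FPKM passed Smad3 at 14.2 FPKM with overlapping ranges. Tgfbr1 at 8.32 FPKM came level with Smad7 at 8.26 FPKM. Tgfb1 moved past Tgfb2, again with overlapping ranges.

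Within the 6 libraries that had Omp of at least 1 FPKM, no member was called (2 WT and 4 KO), and 1 of all genes passed in limma, while 1911 had an unadjusted p under 0.05. There the log2 differences were 0.35 for Tgfbr2, 0.35 for Tgfb3, 0.41 for Tgfb1 and -0.22 for Smad3. With KO3 removed as well they were 0.43, 0.47, 0.50 and -0.28, and Tgfbr2, Tgfb3 and Smad3 passed (limma adjusted p = 0.0210, 0.0259 and 0.0368; 0.0870 for Tgfb1). Among the 4 libraries with less Omp, KO5 against WT1, WT2 and WT5, the differences were 0.48, 0.32, 1.10 and -0.22. They rest on 1 KO library, assumed to vary as the WT libraries do, and it is the one that stood apart in its ligand make-up and in the markers of mural cells, fibroblasts and endothelium. With the olfactory bulb score in the model of all libraries 0 members and 0 of all genes passed, although 2565 genes had an unadjusted p under 0.05. In that fit the log2 differences were 0.39 for Tgfbr2, 0.27 for Tgfb3, 0.72 for Tgfb1 and -0.21 for Smad3. They were 0.15 for Tgfb2 and 0.19 for Tgfbr1.

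Microglia are among the cells that respond to TGF-beta, and their markers were set beside the members. Of 12 microglial markers 5 were higher in KO, Aif1, C1qa, C1qb, C1qc and Tyrobp, and 0 lower. Their summed level ran from 168 to 213 FPKM in WT and from 209 to 323 FPKM in KO, lowest in KO3. Of the resting genes, 3 that are widely used as markers were not called: Cx3cr1 averaged 19.9 and 20.7 FPKM, P2ry12 11.6 and 10.4 FPKM, and Tmem119 13.7 and 14.0 FPKM in WT and KO. The summed markers of astrocytes ran from 1497 to 1852 FPKM in WT and from 1698 to 2101 FPKM in KO. Of 12 astrocyte markers 2 were called higher, Gfap and Aqp4. Their median log2 difference over the 12 was 0.05, beside 0.08 for all tested genes. Endothelial markers summed to 176 to 221 FPKM and 155 to 244 FPKM, with 1 of 12 higher. The part of these cells in the levels of Tgfbr2, Tgfb3 and Smad3 was not tested.

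The other genes of the pathway were taken from 6 lists, in which 109 genes were tested and 24 called, 23 higher and 1 lower, where 9.77% of all genes were higher and 3.51% lower. Without the library labelled KO3, 46 were higher and 4 lower, where 19.6% and 6.36% of all genes were. The counts of single lists below are to be read against the same shares, and those of the receptors and of the other SMADs lie near or below them. None of them passed without WT1, without KO2 or without KO4, fits in which 2 of all genes passed while 3943, 4101 and 3727 had an unadjusted p under 0.05. Of 18 tested genes for latent ligand storage and activation 4 rose and 0 fell, with a list median of 0.15 beside 0.08 for all genes. Mmp14, a membrane protease that can release the ligand, measured 6.05, 4.84, 5.91, 6.31 and 5.89 FPKM in WT1 to WT5 and 8.30, 9.72, 6.41, 8.46 and 8.70 FPKM in KO1 to KO5. Its groups did not overlap, and its log2 difference was 0.45 (SE 0.09, limma adjusted p = 0.0194). Bgn, a matrix proteoglycan that binds the ligands, rose from 5.89 ± 0.740 to 11.5 ± 4.06 FPKM (SD, n = 5 per group; limma adjusted p = 0.0206). Ltbp3, a carrier like Ltbp1, rose from 6.57 ± 0.575 to 8.98 ± 1.41 FPKM, and Thbs2, a matrix thrombospondin, from 1.59 ± 0.145 to 2.46 ± 0.606 FPKM. The adjusted p of Thbs2 was 0.0389 and ran up to 0.824 over the alternatives.

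Of 12 co-receptors and related receptors 1 rose, Bmpr1a, a receptor of bone morphogenetic proteins. It ran from 8.99 to 10.4 FPKM in WT and, without overlap, from 10.6 to 13.1 FPKM in KO (log2 difference 0.26, SE 0.06, limma adjusted p = 0.0250). Tgfbr3, the co-receptor that presents Tgfb2, measured 1.89, 1.86, 1.97, 2.41 and 1.16 FPKM in WT1 to WT5 and 2.66, 3.72, 1.81, 3.01 and 3.48 FPKM in KO1 to KO5. All KO libraries but KO3 lay above WT, and the difference of 0.46 did not pass (limma adjusted p = 0.0592; 0.00736 without the library labelled KO3). The receptors Acvr1c and Acvr1 had differences of 0.43 and 0.30 (limma adjusted p = 0.0689 and 0.0710). The list median was 0.12, and with median-of-ratios scaling 0 of the 12 were called.

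Of 22 other SMADs and regulators 1 rose, Smad5, a transducer of the bone morphogenetic protein branch, from 6.37 ± 0.664 to 7.85 ± 0.808 FPKM (SD, n = 5 per group; limma adjusted p = 0.0476; up to 0.494 over the alternatives). Smad1 of the same branch had a difference of 0.18 (limma adjusted p = 0.109). Tab1, a partner of the kinase TAK1, had 0.22 (0.0531), and Runx1, a transcription factor that works with SMADs, 0.25 (0.0757). The list median was 0.12, and with median-of-ratios scaling 0 of these genes were called higher and 1 lower.

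Of 14 activin, BMP and GDF ligands and antagonists 4 rose and 0 fell, all of them ligands. Bmp6, a bone morphogenetic protein best known from iron balance, measured 5.55, 4.25, 5.50, 5.30 and 4.34 FPKM in WT1 to WT5 and 9.15, 10.6, 5.94, 8.43 and 11.4 FPKM in KO1 to KO5. All of KO lay above all of WT (log2 difference 0.73, SE 0.14, limma adjusted p = 0.0186). Inhba, the subunit of activin A that neuronal activity induces, rose from 3.77 ± 0.616 to 6.29 ± 1.54 FPKM (SD, n = 5 per group; limma adjusted p = 0.0209), also without overlap. Bmp3 rose from 4.81 ± 1.01 to 8.70 ± 2.12 FPKM and Bmp7 from 4.64 ± 0.501 to 6.15 ± 0.714 FPKM. Inhbb, another activin subunit, went the other way, from 1.93 to 1.45 FPKM on average, with every KO library below every WT library. It was not called (log2 difference -0.26, limma adjusted p = 0.0626). The list median was 0.12, with 3 higher and 2 lower under median-of-ratios scaling.

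Of 23 tested target genes 7 rose and 0 fell, with a list median of 0.32. With median-of-ratios scaling 4 of them were called higher, and 3 with quantile normalization. Id3, an inhibitor of helix-loop-helix factors that TGF-beta and bone morphogenetic proteins both regulate, measured 9.36, 14.5, 12.9, 13.6 and 11.1 FPKM in WT1 to WT5 and 26.2, 21.3, 13.9, 26.7 and 24.4 FPKM in KO1 to KO5. KO3 lay within the WT range and the other KO libraries far above it (log2 difference 0.81, SE 0.16, limma adjusted p = 0.0186). Hmox1, which degrades heme and answers oxidative stress, rose from 1.59 ± 0.238 to 5.51 ± 3.05 FPKM (SD, n = 5 per group), and was 1.59 FPKM in KO3. Timp1, an inhibitor of matrix proteases, rose from 1.09 ± 0.208 to 2.60 ± 1.09 FPKM. Cdkn1a, the cell cycle inhibitor p21, rose from 14.7 ± 1.50 to 22.4 ± 6.90 FPKM, without overlap and highest in KO5 at 34.7 FPKM. These genes answer to several other signals as well. Col3a1, Lox and Id1 made up the rest of the 7. Meningeal fibroblasts also express the collagens, and 6 of 11 of their markers rose, with sums of 74.7 to 96.5 FPKM in WT and 84.9 to 143 FPKM in KO. Col1a1, Col1a2 and Col3a1 belong to both the targets and these markers, and Col3a1 is counted as risen in both. The counts of targets and of fibroblast markers are therefore not independent. Their part in the target list was not tested.

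Of 20 microglial genes that depend on TGF-beta or change when it is lost, 6 rose and 1 fell, with a list median of 0.19, and with median-of-ratios scaling 3 were higher and 1 lower. Spp1, which encodes osteopontin of activated microglia, rose from 3.94 ± 1.11 to 8.48 ± 1.84 FPKM (SD, n = 5 per group; limma adjusted p = 0.0186), without overlap. C1qa, a complement subunit, rose from 32.6 ± 4.16 to 57.8 ± 12.7 FPKM, also without overlap. Sall1 and Olfml3, which belong to resting microglia, rose too, from 6.15 to 8.88 FPKM and from 5.46 to 6.96 FPKM on average (limma adjusted p = 0.0459 and 0.0441), as did Pros1, a ligand for the clearance of dying cells. Gpr84, a receptor of activated microglia, rose from 0.355 ± 0.164 to 1.14 ± 0.390 FPKM. Slc2a5, the fructose transporter of resting microglia, was 1.77, 2.04, 1.56, 1.44 and 2.13 FPKM in WT1 to WT5 and 0.919, 1.02, 1.53, 0.756 and 1.16 FPKM in KO1 to KO5. All KO libraries but KO3 lay below WT (log2 difference -0.43, SE 0.11, limma adjusted p = 0.0296). The list holds genes of both states, so its count has no single direction.

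**Figure D4:**
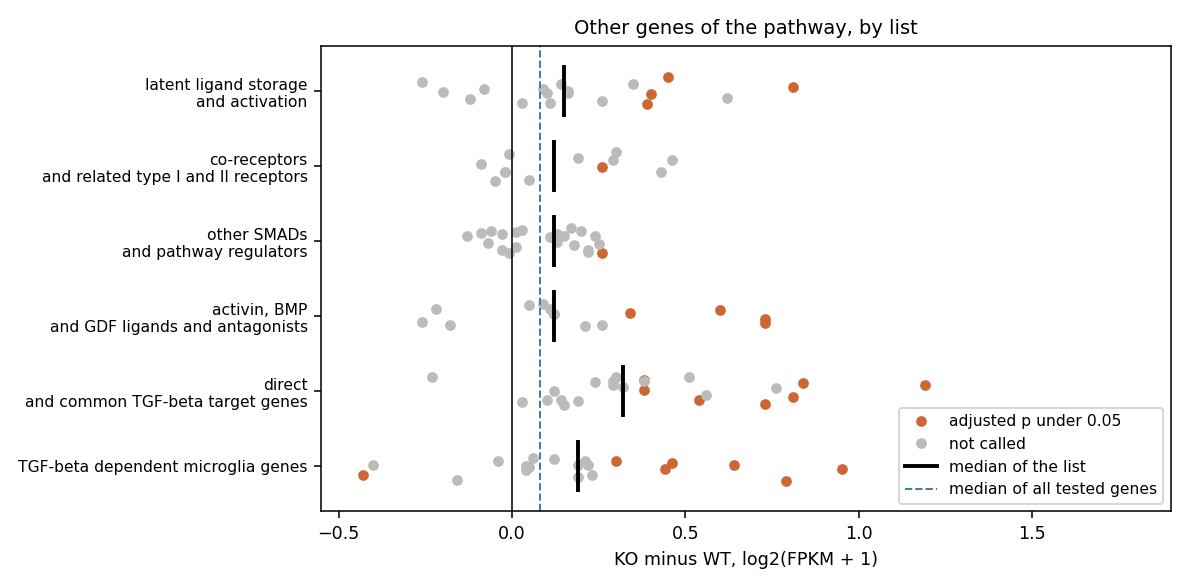
KO minus WT on the log2(FPKM + 1) scale, on the horizontal axis, for every tested gene of the 6 lists, with called genes in orange, the others in grey and a black bar at each list's median; the vertical spread within a list has no meaning. The medians lie between 0.12 and 0.32, where all tested genes have a median of 0.08, and the furthest point is Hmox1 at 1.19.

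The genes that varied most like the called members within the groups were found by the Pearson correlation of deviations from the group means over the 10 libraries. They were Lipo1 (0.96) and Lrig1 (0.94) for Tgfbr2, Pex3 (0.97) and Fgfbp1 (0.96) for Tgfb3, and Rnd1 (0.93) and Pthlh (0.93) for Smad3. Spearman values were between 0.76 and 0.95. Without the 2 libraries farthest from the middle, of which KO3 was always 1, the Pearson values were 0.77 to 0.88. These genes were picked as the highest of all tested ones, and all share the same libraries, so the values are a description. Lrig1, a membrane inhibitor of growth factor receptors, was 8.79 ± 0.796 FPKM in WT against 12.4 ± 1.79 FPKM in KO (SD, n = 5 per group; limma adjusted p = 0.0209). Rnd1 was lower, at 8.37 ± 1.14 FPKM in WT against 5.13 ± 1.40 FPKM in KO (SD, n = 5 per group, limma adjusted p = 0.0198). Lipo1, Pex3, Fgfbp1 and Pthlh were not called.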

How the data were processed

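Total RNA from motor cortex was extracted with a tissue kit and made into NEBNext Ultra libraries, per the labels' protocols. The authors deposited FPKM per gene and library, with gene length and coordinates, per the file headers. A build, mm10, and a tool, DESeq2, are listed in the submitters' processing notes without a role. The aligner, counter, annotation release and strand setting were not given in the sources drawn on. FPKM times gene length gave whole fragments for 100% of values above 0 (within 0.02), so the authors' FPKM are relative to fragments assigned to the table's genes.

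Groups and replicate numbers came from the titles; the series text calls the 5 per genotype biological repeats, and no litter is given. The genotype effect was fitted on log2(FPKM + 1) with limma 3.58.1 under R 4.3.3 (moderated variance, trended prior). It covered the 14497 genes whose mean reached 0.5 FPKM, and p-values were Benjamini-Hochberg adjusted over all of them, with calls at 0.05. Fold changes on that scale understate low genes. Exact tests used 252 assignments, two-sided. The step was tested on simulated counts of independent libraries with a fixed spread. These held no outlying library and no difference in tissue, so that test does not cover either. Members and lists were chosen with earlier results of these data known, so no list was tested as a set.

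Named were all members, Tmem259, the 4 genes of each list with the lowest p plus called genes without overlap up to 6, and the 2 genes most like each called member. Nrros, Inhbb, Sall1, Olfml3, Pros1, Cx3cr1, P2ry12, Tmem119, Ttll5, Omp, the called markers and the rest of the 7 target genes were added. Alternatives covered pseudocount, filter, scaling, variance model, array weights, block, covariates and libraries left out; the fits that left out KO3 with a further library, and those by Omp level other than the first, were chosen after seeing the data. Overlaps came from GENCODE M21 and sequences from RefSeq GRCm38.p6.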

Additional observations from a re-analysis of the deposited data

Results flagged for a closer look

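Of 98 groups of 5 libraries examined, 8 held a library far from the other 4 (gap over range above 0.71), where chance gives about 1 in 20. In KO the library labelled KO3 was apart in 4 of them, at 6.45 FPKM for Tgfbr1 (lowest), 16.3 FPKM for Smad3 (highest), 9.26 FPKM for Lrig1 (lowest) and 7.50 FPKM for Rnd1 (highest). Lrig1 and Rnd1 were picked for varying like Tgfbr2 and Smad3, so their values are not independent of KO3 standing apart for those genes and are not to be set against that rate. KO5 was apart for Cdkn1a at 34.7 FPKM. In WT, WT2 was apart for Mmp14 at 4.84 FPKM, WT1 for Hmox1 at 1.17 FPKM, and WT5 for the ratio of Smad3 over Smad2 at 2.33.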

How the results depend on the processing

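The directions of Tgfb1, Tgfb2, Tgfb3, Tgfbr1, Tgfbr2 and Ltbp1 (higher) and of Smad3 (lower) were the same in all 35 alternative fits. Tgfbr2 was called in 29 of them, Smad3 in 20 and Tgfb3 in 19. For each of the 3 genes, 9 of these calls came from the fits without KO3 and a further library, chosen after seeing the data. In the 10 fits with 1 library left out, Tgfbr2 was called in 7, and Smad3 and Tgfb3 in 1 each, the fit without KO3. Members called numbered 3, all genes 1926 and list genes 24. With no filter on low values, where 25406 genes were tested, they were 1, 465 and 5; with array weights 5, 3557 and 43; with the olfactory bulb score 0, 0 and 0; in libraries with Omp of at least 1 FPKM 0, 1 and 0; and in those with less 1, 305 and 9. Quantile normalization gave 15 list genes. With 1 library left out in turn the ranges were 0 to 6 members, 2 to 3769 genes and 0 to 50 list genes; with KO3 and a further library left out they were 5 to 6, 2407 to 3437 and 33 to 46. Without KO3 and with the olfactory bulb score they were 3, 1215 and 16. The 3 members were Tgfbr2, Tgfb3 and Tgfb1 (limma adjusted p = 0.0182, 0.0479 and 0.0363), and Smad3 was not called (0.0698). Median-of-ratios scaling gave 607 genes higher and 946 lower, beside 1417 and 509. The causes of these shifts were not tested. The replicate numbers were not taken to pair the samples: same-numbered libraries had deviations correlated at 0.14, -0.04, -0.06, 0.14 and 0.11, so not all were above 0.1, and 4 of 10 libraries matched their own number best. With the replicate number as a block 1271 genes were called, and members were Tgfbr2 and Smad3 (limma adjusted p = 0.0404 and 0.0471), with 0.0523 for Tgfb3. Under that block 17 list genes were called, 1 in place of 4 among the activin, BMP and GDF ligands and 4 in place of 7 among the targets. With 1 library left out, the differences between genotypes ran from -0.412 to -0.268 for Smad3 over Smad2, -0.231 to -0.179 for Tgfbr1 over Tgfbr2, 0.0175 to 0.0406 for Smad7 over Smad2 plus Smad3, and 0.266 to 5.14, -3.72 to 0.165 and -3.37 to -0.0173 percentage points for the Tgfb1, Tgfb2 and Tgfb3 shares.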
